A study of Homo sapiens with 12 samples.

Results

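The genes described here are the heat shock and DNAJ chaperones of NB-1 cells: protein-coding genes named HSPA, HSPB, HSPD, HSPE, HSPH, HSP90A, DNAJA, DNAJB or DNAJC in GENCODE release 29, without the 6 chaperones of the endoplasmic reticulum (ER) lumen HSPA5, HSPA13, DNAJB9, DNAJB11, DNAJC3 and DNAJC10. The rule gave 67 of the 58051 genes in the count table, and 58 of them had enough counts to be tested. NB-1 is an established human neuroblastoma line known for amplified MYCN and ALK genes, and it gave every culture. Cultures received the solvent DMSO, the PI3K and mTOR kinase inhibitor BEZ-235 (dactolisib) at 0.5 µM, the histone deacetylase inhibitor SAHA (vorinostat) at 0.5 µM, or BEZ-235 and SAHA together at these doses. Polyadenylated RNA was taken after 48 h from 3 biological replicates of each group.

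Names alone do not make a cytosolic set. Of the 67 members, 8 act in mitochondria (HSPD1, HSPE1 and HSPA9 among them) and 7 sit in the ER membrane. HSPBP1 is a nucleotide exchange factor, HSPBAP1 an oxygenase-like protein that binds HSPB1, and HSPB11 a subunit of the intraflagellar transport machinery, so these 3 entered by name and not as heat shock proteins. The members were therefore grouped by role into 8 inducible, 7 constitutive and 7 small heat shock genes, and into 8 mitochondrial, 7 ER-membrane, 5 vesicle and endosome, 5 nuclear and ribosomal, 5 other HSP70-type, 4 neuronal DNAJ and 11 remaining genes.

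Chaperones hold proteins that are not folded and help them to fold or to reach degradation. HSP70 proteins bind short stretches of a client in a cycle driven by ATP, DNAJ proteins (also called HSP40) bring the client and switch on the ATPase, and HSP110 proteins and BAG proteins release the nucleotide. HSP90 acts later, on clients such as kinases and steroid receptors, while the small heat shock proteins (HSPB) hold clients without using ATP. Under stress the transcription factor HSF1 forms trimers and binds the heat shock element, repeats of GAA in alternating orientation. It raises the inducible genes (HSPA1A, HSPA1B, HSPA6, DNAJB1, HSPH1, HSP90AA1), while constitutive partners such as HSPA8 and HSP90AB1 are made at high levels without stress. The kinase ALK is a known HSP90 client, and dependence of the cells on chaperones was not measured here.

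The heat shock element is shown first because most inducible genes here hold it in a form of 2 or 3 units, as do some constitutive and small genes. The 250 bases before each annotated start in RefSeq (assembly GRCh38.p14) were searched on both strands for 3 units, spelled GAANNTTCNNGAA or TTCNNGAANNTTC, and for 2 units, spelled GAANNTTC or TTCNNGAA, the longer match always containing the shorter. Of the 67 members, 59 had at least 1 window. The motif of 3 units was found in 6 of these 59 genes, namely HSP90AA1, HSPA6, HSP90AB1, HSPA8, HSPD1 and DNAJB6, against 0.557% of all 27305 genes with a window and 0.441% of all windows. The motif of 2 units was found in 20 of the 59, against 14% of all genes and 11.6% of all windows. By class, 7 of 8 inducible genes held 2 units (HSPH1 did not), as did 2 of 6 constitutive, 4 of 6 small and 2 of 8 mitochondrial genes with a window. A match is a run of letters and not a measured binding site. The stretches below lie outside annotated exons, run 5′ to 3′ on the gene's strand, and have the match in capitals. They are chr6:31815367-31815463 (plus strand) for HSPA1A, chr6:31827563-31827659 (plus) for HSPA1B, chr6:44247761-44247865 (plus) for HSP90AB1, chr1:161524396-161524539 (plus) for HSPA6, chr7:76302423-76302543 (plus) for HSPB1 and chr19:14518421-14518514 (minus) for DNAJB1. The HSP90AB1 and DNAJB1 stretches lie within the annotated span of those genes, in introns of longer transcripts.
HSPA1A: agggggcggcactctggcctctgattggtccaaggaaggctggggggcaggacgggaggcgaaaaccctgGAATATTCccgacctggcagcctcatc
HSPA1B: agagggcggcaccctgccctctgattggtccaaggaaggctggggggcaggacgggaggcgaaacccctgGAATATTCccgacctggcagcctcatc
HSP90AB1: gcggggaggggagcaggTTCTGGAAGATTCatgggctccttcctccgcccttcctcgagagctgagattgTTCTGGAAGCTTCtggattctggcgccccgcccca
HSPA6: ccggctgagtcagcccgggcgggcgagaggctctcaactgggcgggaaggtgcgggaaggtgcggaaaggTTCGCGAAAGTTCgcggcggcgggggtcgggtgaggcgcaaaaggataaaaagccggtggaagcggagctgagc
HSPB1: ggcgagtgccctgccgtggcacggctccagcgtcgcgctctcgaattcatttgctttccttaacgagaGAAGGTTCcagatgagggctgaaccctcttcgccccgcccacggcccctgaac
DNAJB1: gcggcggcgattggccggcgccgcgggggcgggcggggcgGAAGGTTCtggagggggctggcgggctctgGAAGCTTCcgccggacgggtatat

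HSPA1A and HSPA1B are near-identical copies on the same chromosome. Of the 97 bases shown for each, 93 were identical without a gap (95.9%). HSP90AB1, a constitutive gene, carried 2 matches of 3 units in the stretch shown, and HSPA6 carried 1. HSPB1 and DNAJB1 carried only the 2-unit form, once and at 2 places.

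Libraries held 17662944 to 79543539 counts (median 20407980), SAHA replicate 2 being the deepest and the next holding 29544051. Levels are CPM, the share of a library's counts put on the usual common scale after TMM normalization, and changes are log2 fold changes ± SE from edgeR's quasi-likelihood test with n = 3 per group. A gene was called where its Benjamini-Hochberg adjusted p over all 17774 genes tested, 2-sided, was under 0.05. The 3 libraries with both drugs stood apart from the other 9 in a slope on transcript GC content. For it, each gene's log2 CPM was taken as its deviation from its mean over all libraries. The slope was 0.197 to 0.45 log2 units per 10 points of GC content, against -0.215 to 0 elsewhere. These slopes are relative to that shared mean and are not the GC dependence of a library by itself. Results with both drugs are therefore given with a second value corrected for GC content and length, written as the GC-corrected value. The GC difference coincides with the combined treatment. A technical shift and a drug effect tied to GC content or length cannot be told apart here, and the correction removes both. Of the neuroblastoma markers, MYCN was at 926 to 1157 CPM and HAND2 at 351 to 452 CPM in DMSO, and DBH was low at 1.65 to 2.3 CPM. Single neuroblastoma markers also moved with treatment, in both directions. TH was at 109 to 153 CPM in DMSO, 40.9 to 61.7 with BEZ-235, 29.1 to 44.7 with SAHA and 29 to 49.8 with both. PHOX2A was at 114 to 163 CPM in DMSO and 201 to 311 with both. The summed level of the 8 fibroblast markers was 106 to 116 CPM in DMSO, 36.9 to 41.7 with BEZ-235, 420 to 471 with SAHA and 174 to 196 with both, and its part in the results was not tested. LUM carried most of it (57.2 to 62.5, 9.6 to 12.5, 313 to 335 and 82.3 to 118 CPM), and single markers differed in direction. With both drugs PDGFRB was higher than in DMSO (17.3 to 20.3 against 4.4 to 5.85) and THY1 lower (24.6 to 27.5 against 31 to 36.7). Schwann cell markers summed to 1.08 to 7.3 CPM with SOX10 and CDH19 at 0.

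With BEZ-235, 12 members were higher and 17 lower, 50% of the 58 tested, where 50.9% of all genes tested were called (25.5% higher and 25.4% lower). With SAHA, 13 were higher and 16 lower, again 50%, where 43.1% of all genes were called (22.2% higher and 20.9% lower). With both drugs 21 were higher and 26 lower, 81% of the members against 64.4% of all genes (33.2% higher and 31.2% lower). GC-corrected, 15 members were higher and 20 lower with BEZ-235, beside 56% of all genes called (28.3% and 27.7%), and 12 and 19 with SAHA, beside 49.8% (23.9% and 25.9%). With both drugs the GC-corrected counts were 21 and 22, or 74.1% of the members beside 65.5% of all genes (34.6% and 30.9%). The libraries of the treated and DMSO groups did not overlap for 34, 34 and 43 of the 58 members in the 3 comparisons, beside 59.2%, 54.2% and 66.2% of all genes. The median member changed by -0.06, -0.06 and -0.12 in the 3 comparisons, and the median of all genes by 0.02, -0.01 and 0.03. All 3 comparisons use the same DMSO libraries. In RNA from whole cultures, fewer cells of a kind and less RNA per cell cannot be told apart.

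Together the members took 0.912 to 1.124% of the counts of each library, and a few genes carried most of it. HSP90AB1, HSPA8, HSP90AA1 and HSPD1 held 69.6 to 70% of the members' CPM in DMSO. Per kilobase of transcript, DMSO levels were 1096 ± 30.9 CPM per kb for HSP90AB1, 822 ± 54 for HSPA8, 544 ± 25.3 for HSP90AA1, 293 ± 17 for HSPD1 and 257 ± 27.1 for HSPE1 (SD, n = 3). The last pair overlapped within its spread and the others did not. HSPA9 (114 ± 5.17) and DNAJA1 (112 ± 7.94) followed and did not differ beyond their spread. The inducible HSP70 genes stood far lower, HSPA1B at 21 ± 2.69 and HSPA1A at 1.82 CPM per kb, and HSPA6 was at 0.388.

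The inducible genes were mostly lower with BEZ-235. Of the 8, all tested, 5 were lower and 2 higher with BEZ-235, 4 were lower and none higher with SAHA, and 3 were lower and 2 higher with both drugs. These are 87.5%, 50% and 62.5% of the class, beside 50.9%, 43.1% and 64.4% of all genes called (25.4%, 20.9% and 31.2% lower). With BEZ-235, all 8 had no overlap between DMSO and BEZ-235 libraries, where 59.2% of all genes tested had none. The median changes of the class were -0.56, -0.26 and -0.17, beside 0.02, -0.01 and 0.03 for all genes. GC-corrected with both drugs, 4 were lower and 2 higher, 75% of the class beside 65.5% of all genes, with a median of -0.35.

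HSP90AA1, the inducible cytosolic HSP90 (ENSG00000080824, chromosome 14, 102080738 to 102139699 in GRCh38), was read at 1878, 2012 and 1843 CPM in DMSO, 1183, 1156 and 1229 with BEZ-235, 1587, 1811 and 1812 with SAHA, and 1216, 994 and 1065 with both drugs. The 6 libraries with BEZ-235, alone or with SAHA, lay below all 6 without it. The change was -0.68 ± 0.09 with BEZ-235 (adjusted p = 7.87e-06) and -0.81 ± 0.09 with both drugs (adjusted p = 6.13e-07; GC-corrected -0.68). With SAHA it was -0.14 ± 0.09 (adjusted p = 0.221), and -0.18 after the GC correction, where it was called (adjusted p = 0.0425). Its constitutive counterpart went the other way. HSP90AB1 (ENSG00000096384, chromosome 6, 44246166 to 44253888) was read at 2931, 3012 and 2847 CPM in DMSO, 3967, 3767 and 3930 with BEZ-235, 2675, 2853 and 2873 with SAHA, and 4369, 3644 and 4093 with both. Here the 6 libraries with BEZ-235 lay above all 6 without it. The rise was 0.41 ± 0.08 with BEZ-235 (adjusted p = 5.27e-04) and 0.46 ± 0.08 with both (adjusted p = 1.03e-04; GC-corrected 0.46), and with SAHA the value was -0.07 ± 0.08 (adjusted p = 0.547).

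A ratio of the HSP90 pair within each library needs no scaling between libraries. As log2 of the per-kilobase levels, HSP90AA1 over HSP90AB1 was -1.01 ± 0.03 in DMSO, -2.10 ± 0.03 with BEZ-235, -1.08 ± 0.05 with SAHA and -2.28 ± 0.05 with both (SD, n = 3). HSP90AB1 was thus the more abundant transcript in every library, and its lead was larger in each of the 6 libraries with BEZ-235 than in each of the 6 without. An exact permutation test of BEZ-235 against DMSO, 2-sided, gave p = 0.1, the smallest that 3 against 3 libraries allow, and both drugs against DMSO gave the same p. SAHA against DMSO, with means of -1.08 and -1.01, gave it as well, so this p does not separate the large shifts from the small one. The panels for HSP90AA1 and HSP90AB1 in the plot of 6 levels show both genes.

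**Figure D1:**
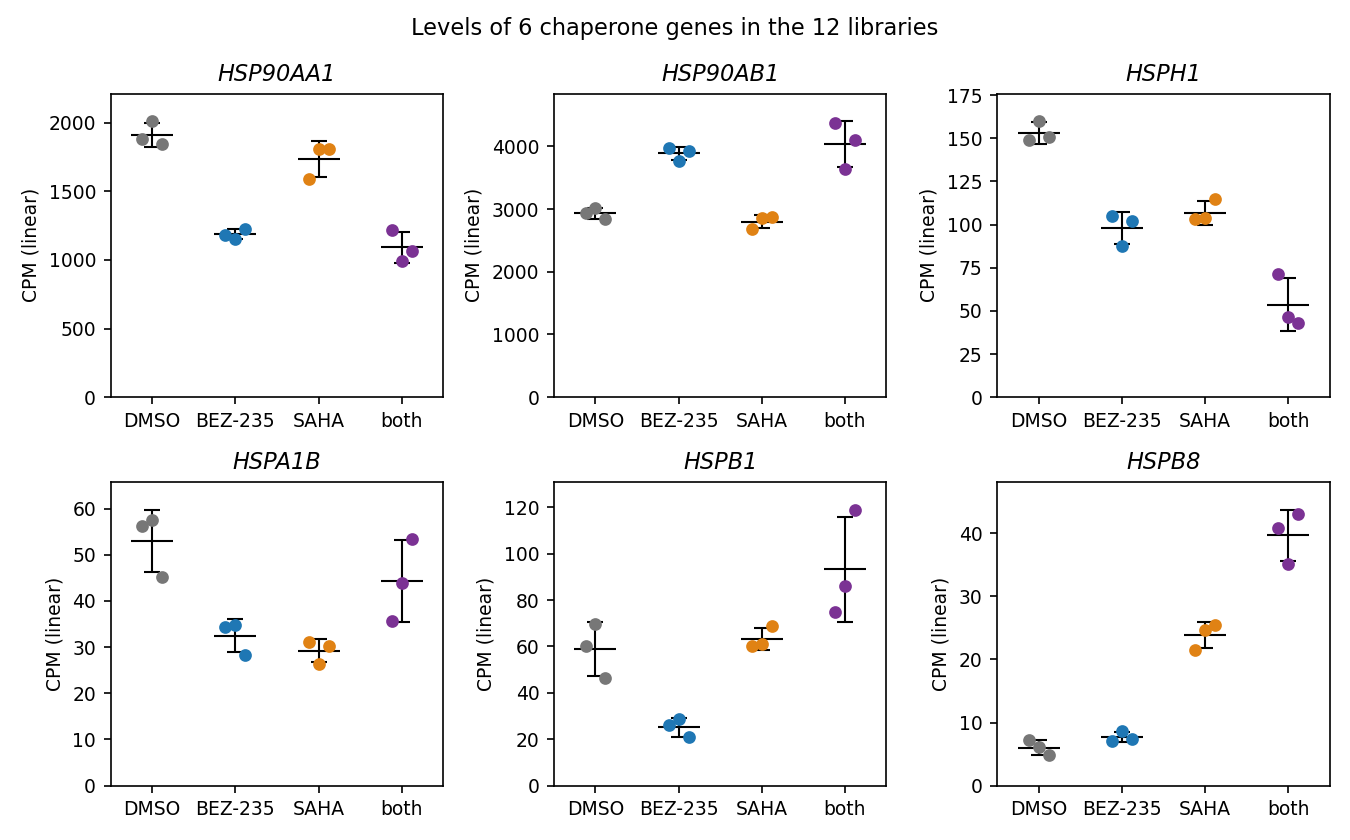
Levels of 6 genes in CPM on linear axes from 0, by treatment group: each point is 1 of 3 libraries, and the bar and whiskers are the mean and SD. HSP90AA1 is low and HSP90AB1 high in all libraries with BEZ-235, HSPB1 is between 20.9 and 28.6 with BEZ-235 alone and between 74.8 and 119 with both drugs, and HSPB8 is highest with both drugs at 35.2 to 43.1.

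HSPH1, the HSP110 that exchanges nucleotide on HSP70, fell under each treatment. Its level was 149, 160 and 151 CPM in DMSO, 105, 87.6 and 102 with BEZ-235, 103, 104 and 115 with SAHA, and 71.3, 46.6 and 42.9 with both. Every treated library lay below every DMSO library, and the 3 with both drugs below all others. The changes were -0.65 ± 0.14 (adjusted p = 0.00192), -0.52 ± 0.14 (adjusted p = 0.0094) and -1.52 ± 0.15 (adjusted p = 6.69e-07), the last -1.09 after the GC correction. DNAJA1, a DNAJ protein that works with HSPA8 and HSP90, fell too: 251, 288 and 262 CPM in DMSO, 188, 190 and 199 with BEZ-235, 186, 209 and 220 with SAHA, and 172, 145 and 162 with both. Its changes were -0.47 ± 0.09 (adjusted p = 2.15e-04), -0.38 ± 0.08 (adjusted p = 0.00165) and -0.74 ± 0.09 (adjusted p = 1.20e-06; GC-corrected -0.37), again with no overlap between DMSO and treated libraries.

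HSPA1A and HSPA1B encode the same stress-induced HSP70 protein. Their transcripts are so alike that a counting model could split reads between them. Summed over all libraries, HSPA1B had 11494 expected counts, a whole number, and HSPA1A had 1062.45. HSPA1L, a neighbouring relative, also had a total that was not whole (269.56). How reads shared among these genes were divided was not tested. HSPA1B (ENSG00000204388, chromosome 6, 31827735 to 31830255) was read at 56.3, 57.6 and 45.2 CPM in DMSO, 34.4, 34.8 and 28.3 with BEZ-235, 31.1, 26.4 and 30.2 with SAHA, and 35.7, 44 and 53.4 with both. The single-drug libraries lay below all DMSO libraries, and the combined libraries overlapped with DMSO. HSPA1B fell with BEZ-235 (-0.71 ± 0.14, adjusted p = 4.77e-04) and with SAHA (-0.86 ± 0.13, adjusted p = 1.02e-04). With both drugs the value was -0.25 ± 0.14 (adjusted p = 0.111). That value depends on processing: it was -0.57 and called after the GC correction (adjusted p = 4.97e-05), -0.31 and called with no filter on low counts (adjusted p = 0.00809), -0.38 and called without DMSO replicate 3 (adjusted p = 0.0278), and -0.42 and called without combination replicate 3 (adjusted p = 0.0109).

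HSPA1A (ENSG00000204389, chromosome 6, 31815464 to 31817946) stood at 3.66, 6.16 and 3.74 CPM in DMSO, 2.04, 1.39 and 2.67 with BEZ-235, 2.88, 3.05 and 2.82 with SAHA, and 3.72, 4.8 and 5.14 with both. DMSO replicate 2 was the highest of all 12. HSPA1A fell with BEZ-235 (-1.14 ± 0.25, adjusted p = 0.00116), and the SAHA value of -0.63 ± 0.23 (adjusted p = 0.0394) rested on single libraries. It was -0.34 without DMSO replicate 2 (adjusted p = 0.279), -0.61, -0.67 and -0.60 without SAHA replicates 1, 2 and 3 in turn (adjusted p = 0.0853, 0.0794 and 0.0911), -0.64 by DESeq2 (adjusted p = 0.0512), and -0.51 after the GC correction (adjusted p = 0.0623). With both drugs it was 0.01 ± 0.23 (adjusted p = 0.967), and its sign turned under several alternatives. Summed as 1 gene, the pair was read at 57.5 ± 7.67 CPM in DMSO, 34.5 ± 3.1 with BEZ-235, 32.1 ± 2.39 with SAHA and 49 ± 9.58 with both (SD, n = 3). The summed changes were -0.74 ± 0.13 (adjusted p = 2.21e-04), -0.84 ± 0.13 (adjusted p = 8.11e-05) and -0.23 ± 0.13 (adjusted p = 0.131).

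HSPA6, an inducible HSP70 found in human and not in mouse, rose with BEZ-235 and with both drugs. It was a rare transcript at 1.2, 0.894 and 0.667 CPM in DMSO, 1.55, 2.46 and 1.98 with BEZ-235, 1.18, 1.29 and 0.858 with SAHA, and 3.56, 2.81 and 3.05 with both. All 6 libraries with BEZ-235 lay above all 6 without it. The rise was 1.12 ± 0.28 with BEZ-235 (adjusted p = 0.00299) and 1.78 ± 0.27 with both (adjusted p = 2.57e-05; GC-corrected 1.48), with 0.30 ± 0.28 for SAHA (adjusted p = 0.415). HSPA6 overlaps the unnamed gene AL590385.2 on the same strand. DNAJB4, a DNAJ partner of HSP70, rose with BEZ-235 (0.39 ± 0.11, adjusted p = 0.00546) from 19.9 to 24.5 CPM in DMSO to 25.7 to 31.8. With both drugs it was -0.08 ± 0.11 (adjusted p = 0.529) and 0.72 after the GC correction (adjusted p = 9.07e-08). Its transcript has the lowest GC content of all members, 33.1%.

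DNAJB1, the main cytosolic HSP40 and a sensitive readout of HSF1, moved little. It was read at 57.8, 57.2 and 51.7 CPM in DMSO, 47.9, 48 and 50.6 with BEZ-235, 58.4, 62.1 and 65 with SAHA, and 69.3, 64.5 and 68.2 with both. The BEZ-235 libraries were the 3 lowest and the combined libraries lay above all DMSO libraries. It was called only with both drugs (0.28 ± 0.08, adjusted p = 0.00415), and not after the GC correction (0.13, adjusted p = 0.0655) or with no filter (0.22, adjusted p = 0.0755). With BEZ-235 the value was -0.18 ± 0.08 (adjusted p = 0.0535), under the threshold in several alternatives, among them DESeq2 (-0.20, adjusted p = 0.0267) and the fit without DMSO replicate 3 (-0.25, adjusted p = 0.0219). Each of 4 further fits also passed (-0.20), those lacking SAHA replicate 1 and combination replicates 1, 2 and 3. With SAHA it was 0.16 ± 0.07 (adjusted p = 0.105).

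The constitutive class split. Of its 7 genes, all tested, 1 was higher and 2 lower with BEZ-235, none higher and 3 lower with SAHA, and 2 higher and 4 lower with both drugs (2 and 3 GC-corrected). Class medians were 0.09, -0.07 and -0.26. HSPA8 (HSC70), the standing cytosolic HSP70, was read at 1978, 2175 and 1921 CPM in DMSO, 2087, 2042 and 2041 with BEZ-235, 1470, 1636 and 1702 with SAHA, and 2121, 1640 and 1811 with both. Only the SAHA libraries lay apart from DMSO, all below it. HSPA8 fell with SAHA (-0.34 ± 0.10, adjusted p = 0.00881), and the values were 0.02 ± 0.10 with BEZ-235 (adjusted p = 0.862) and -0.12 ± 0.10 with both (adjusted p = 0.263). The last was -0.25 and called without combination replicate 1 (adjusted p = 0.0243). Small nucleolar RNA genes lie in HSPA8 introns on the same strand.

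DNAJC2, a ribosome-bound DNAJ protein (also called MPP11), showed the largest SAHA change of the constitutive genes. Its libraries gave 63.7, 69.5 and 62.7 CPM in DMSO, 66.7, 69.4 and 72.2 with BEZ-235, 38.1, 36.6 and 37 with SAHA, and 42.6, 34.8 and 33.8 with both. The 6 libraries with SAHA lay below all 6 without it. The changes were 0.09 ± 0.09 (adjusted p = 0.42), -0.81 ± 0.09 (adjusted p = 2.08e-06) and -0.82 ± 0.09 (adjusted p = 6.35e-07; GC-corrected -0.57). HSPA14, its HSP70 partner on the ribosome, was at 0.10 ± 0.10 with SAHA (adjusted p = 0.431), -0.25 ± 0.10 with BEZ-235 (adjusted p = 0.0443) and -0.51 ± 0.10 with both (adjusted p = 3.52e-04; GC-corrected -0.25).

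HSPA4, a constitutive HSP110, followed BEZ-235: 316, 336 and 314 CPM in DMSO, 239, 232 and 245 with BEZ-235, 294, 312 and 319 with SAHA, and 252, 193 and 184 with both. The 6 libraries with BEZ-235 were the 6 lowest. Its changes were -0.43 ± 0.10 (adjusted p = 0.00148), -0.06 ± 0.10 (adjusted p = 0.638) and -0.62 ± 0.10 (adjusted p = 3.50e-05; GC-corrected -0.35). The remaining constitutive calls were near the threshold. For HSPA14 with BEZ-235 the call was lost under the replicate block (adjusted p = 0.0712) and without DMSO replicate 2 (-0.22), DMSO replicate 3 (-0.24), BEZ-235 replicate 1 (-0.22), BEZ-235 replicate 3 (-0.29) and SAHA replicate 2 (-0.26), each left out in turn. DNAJC7, a cochaperone that binds HSP70 and HSP90, was at -0.28 ± 0.11 with SAHA (adjusted p = 0.0469) and -0.26 ± 0.11 with both (adjusted p = 0.0473), the latter -0.19 and not called after the GC correction (adjusted p = 0.0642). Its SAHA call was lost without DMSO replicate 1 or 2, any BEZ-235 replicate or any SAHA replicate (-0.30 to -0.18), and its call with both drugs without replicates 1 or 2 of DMSO, or replicates 2 or 3 of SAHA or of the combination (-0.30 to -0.18). DNAJA2, a constitutive HSP40, was at 0.18 ± 0.08 with both drugs (adjusted p = 0.0476). That call was lost without any 1 library other than SAHA replicate 3 and combination replicate 3 (0.13 to 0.18), and the GC-corrected value was 0.57 (adjusted p = 4.86e-08).

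The small heat shock genes gave the widest changes of the 3 classes. Only HSPB1, HSPB7 and HSPB8 of the 7 had enough counts to be tested, so no share or median of the class is drawn from them. HSPB1 (HSP27), which binds unfolded proteins and actin, lies at 76302544 to 76304295 on chromosome 7 (ENSG00000106211). It was read at 60.1, 69.7 and 46.6 CPM in DMSO, 26, 28.6 and 20.9 with BEZ-235, 60.2, 60.9 and 68.9 with SAHA, and 74.8, 86.2 and 119 with both. The 3 BEZ-235 libraries were below all others, and the 3 with both drugs above all others. HSPB1 fell with BEZ-235 (-1.23 ± 0.19, adjusted p = 1.48e-04) and rose with both drugs (0.67 ± 0.18, adjusted p = 0.00555). The rise against DMSO did not pass after the GC correction (0.19, adjusted p = 0.0777), and HSPB1 has a GC content of 64.33%. With SAHA the value was 0.11 ± 0.18 (adjusted p = 0.661), and GC-corrected it was 0.37 and called (adjusted p = 0.003).

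HSPB8 (HSP22), which works with BAG3 to send proteins to autophagy, rose with SAHA. Levels per library were 7.16, 6.07 and 4.8 CPM in DMSO, 7.08, 8.67 and 7.35 with BEZ-235, 21.5, 24.7 and 25.5 with SAHA, and 40.8, 35.2 and 43.1 with both. SAHA libraries lay above all libraries without SAHA, and combined libraries above all others. The change was 2.00 ± 0.14 with SAHA, 4 times the DMSO level (adjusted p = 1.56e-08), and 2.73 ± 0.14 with both, 6.64 times the DMSO level (adjusted p = 6.76e-11; GC-corrected 2.56). With BEZ-235 it was 0.36 ± 0.15 (adjusted p = 0.0527), 0.39 and called after the GC correction (adjusted p = 0.0231), and 0.49 and called without DMSO replicate 1 (adjusted p = 0.0217). Against SAHA alone, both drugs gave 0.73 ± 0.12 more (adjusted p = 8.01e-05; GC-corrected 0.57, adjusted p = 1.75e-04).

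HSPB7, a small heat shock protein known from heart muscle, rose with BEZ-235. It was read at 2.51, 1.84 and 1.78 CPM in DMSO, 9.86, 13.3 and 10.7 with BEZ-235, 1.44, 1.53 and 1.13 with SAHA, and 3.83, 5.07 and 5.74 with both. BEZ-235 libraries were the highest, combined libraries second and SAHA libraries the lowest, with no overlap among the 4 groups. The change was 2.47 ± 0.20 with BEZ-235, 5.54 times the DMSO level (adjusted p = 4.27e-08), and 1.27 ± 0.21 with both (adjusted p = 5.10e-05; GC-corrected 0.93). With SAHA it was -0.55 ± 0.22 (adjusted p = 0.054), and -0.54 and called without combination replicate 1 (adjusted p = 0.0425). Adding SAHA to BEZ-235 lowered it by -1.20 ± 0.18 (adjusted p = 3.74e-05; GC-corrected -1.66).

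The other 4 small genes were nearly silent. HSPB3, a muscle gene, had 0 counts in all 3 DMSO and all 3 BEZ-235 libraries, where 0 allows up to 3 counts per library, and 3, 6 and 3 counts with SAHA and 2, 2 and 2 with both. HSPB2, which overlaps CRYAB and a readthrough transcript, had 1 count in DMSO, 10 with BEZ-235, 3 with SAHA and 5 with both over the 3 libraries of each group. HSPB6 had 9, 6, 10 and 2 counts and HSPB9, a testis gene, 27, 13, 28 and 23. These are counts without a test.

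**Figure D2:**
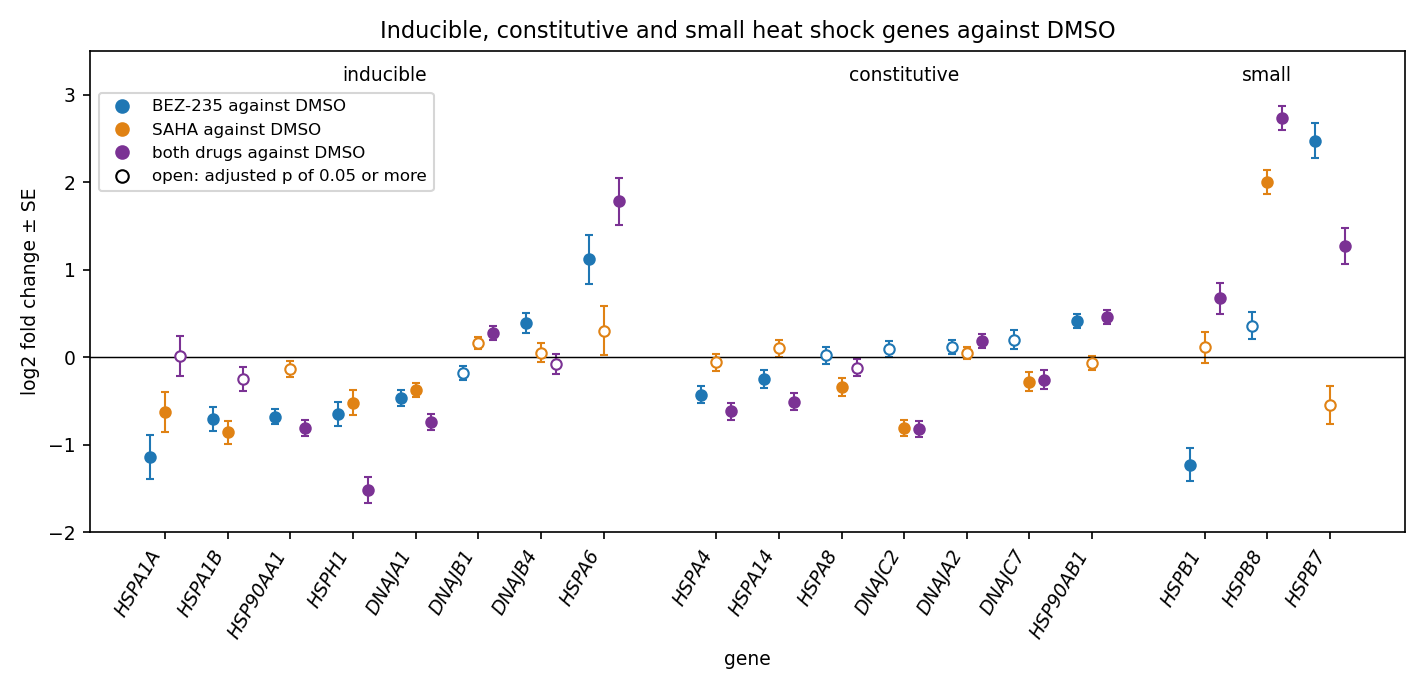
Log2 fold change ± SE against DMSO of the 8 inducible, 7 constitutive and 3 tested small heat shock genes, for BEZ-235, SAHA and both drugs; open points have an adjusted p of 0.05 or more. Inducible genes lie mostly below 0 with BEZ-235, constitutive genes lie between -0.82 and 0.46, and small genes span -1.23 to 2.73.

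Side by side, the 3 classes did not share a direction. With BEZ-235 the summed level of the inducible class was 1552 to 1643 CPM per library, against 2381 to 2602 in DMSO, and that of the constitutive class was 6351 to 6598 against 5359 to 5837. With SAHA the sums were 1991 to 2270 and 4679 to 5155 CPM, both below DMSO in every library. With both drugs they were 1323 to 1594 and 5709 to 7017 CPM. These sums are set mainly by HSP90AA1 for the inducible and by HSP90AB1 and HSPA8 for the constitutive class. Small genes summed to 54.1 to 77.9 CPM in DMSO, 39.4 to 50.9 with BEZ-235, 83.8 to 96 with SAHA and 120 to 168 with both, without overlap between groups. HSPB1 carried most of this sum, with a mean of 93.2 of 138 CPM with both drugs. Its GC-corrected change with both drugs was not called against DMSO (0.19) or SAHA (-0.18). None of the class sums was GC-corrected. No test of one class against another was made. The share of calls in the constitutive class with each single drug (42.9% beside 50.9% and 43.1%) was at or below that of all genes. With both drugs it was 85.7% beside 64.4% of all genes, and GC-corrected 71.4% beside 65.5%.

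Of 8 mitochondrial members tested, 5 were lower and 1 higher with SAHA, 2 lower and none higher with BEZ-235, and 6 lower and 1 higher with both (5 and 2 GC-corrected). The share called was 75% with SAHA, 25% with BEZ-235 and 87.5% with both, beside 43.1%, 50.9% and 64.4% of all genes. Class medians were -0.36, -0.15 and -0.36. HSPD1 (HSP60) and HSPE1 (HSP10) form the mitochondrial folding chamber, and their genes share a promoter and overlap in part of their span. HSPD1 was read at 702, 767 and 689 CPM in DMSO, 662, 630 and 669 with BEZ-235, 470, 530 and 550 with SAHA, and 499, 390 and 408 with both. All 6 SAHA-treated libraries lay below all others. Its changes were -0.14 ± 0.09 (adjusted p = 0.241), -0.48 ± 0.09 (adjusted p = 6.58e-04) and -0.74 ± 0.09 (adjusted p = 4.10e-06; GC-corrected -0.55). HSPE1 also fell with BEZ-235 (-0.50 ± 0.10, adjusted p = 5.28e-04), with SAHA (-0.42 ± 0.10, adjusted p = 0.00273) and with both (-0.81 ± 0.10, adjusted p = 2.51e-06; GC-corrected -0.95).

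DNAJA3 (TID1), the DNAJ partner of mitochondrial HSP70, was read at 85.5, 95.7 and 86.5 CPM in DMSO, 89, 85.9 and 83.8 with BEZ-235, 61.6, 56.5 and 57.4 with SAHA, and 71.1, 73.3 and 76.5 with both. SAHA libraries were the lowest and combined libraries next. It fell with SAHA (-0.61 ± 0.07, adjusted p = 5.16e-06) and with both (-0.28 ± 0.07, adjusted p = 0.00314; GC-corrected -0.39), with -0.05 ± 0.07 for BEZ-235 (adjusted p = 0.592). DNAJC11, a protein of mitochondrial inner-membrane organisation, fell with SAHA (-0.67 ± 0.09, adjusted p = 1.19e-05) and with both (-0.44 ± 0.09, adjusted p = 3.37e-04; GC-corrected -0.66). A further 2 genes are named after their values were seen. HSPA9 (mortalin), the mitochondrial HSP70, fell with SAHA (-0.31 ± 0.09, adjusted p = 0.00775) and with both (-0.53 ± 0.09, adjusted p = 4.84e-05; GC-corrected -0.32), and DNAJC15, an import motor protein, rose from 0.366 to 0.471 CPM in DMSO to 1.18 to 1.41 with SAHA (1.63 ± 0.32, adjusted p = 4.86e-04) and 1.38 to 2.29 with both (2.02 ± 0.32, adjusted p = 3.13e-05; GC-corrected 2.47).

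Of the 7 ER-membrane members, 1 was higher and 1 lower with BEZ-235, 2 higher and 1 lower with SAHA, and 2 higher and 5 lower with both (2 and 3 GC-corrected). The share called was 28.6%, 42.9% and 100% (71.4% GC-corrected), beside 50.9%, 43.1% and 64.4% (65.5%) of all genes. DNAJC1, an ER-membrane DNAJ protein, was read at 28.6, 36.4 and 28 CPM in DMSO, 31, 28 and 32.8 with BEZ-235, 60.5, 53.2 and 58 with SAHA, and 52.3, 47 and 54.9 with both. All 6 libraries with SAHA lay above all 6 without it. It rose by 0.88 ± 0.10 with SAHA (adjusted p = 5.69e-06) and 0.73 ± 0.11 with both (adjusted p = 1.53e-05; GC-corrected 0.63). DNAJC18 rose with BEZ-235 (0.57 ± 0.08, adjusted p = 3.76e-05), from 33.6 to 37 CPM in DMSO to 50.6 to 55.5, and with both (0.41 ± 0.09, adjusted p = 5.10e-04; GC-corrected 0.47). DNAJB14 was lower with both drugs (-0.66 ± 0.15, adjusted p = 0.00155) and at 0.04 after the GC correction (adjusted p = 0.74). Its transcript has a GC content of 34.3%.

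Among vesicle and endosome members, DNAJC6 (auxilin), which uncoats clathrin vesicles in neurons with HSPA8, rose under every treatment. Per library it stood at 32.7, 29.9 and 35.1 CPM in DMSO, 53.2, 56 and 55.3 with BEZ-235, 49.4, 46.5 and 41.9 with SAHA, and 57.4, 54 and 60.3 with both. All treated libraries lay above all DMSO libraries. The changes were 0.75 ± 0.09 (adjusted p = 2.53e-06), 0.49 ± 0.09 (adjusted p = 2.27e-04) and 0.81 ± 0.09 (adjusted p = 4.96e-07; GC-corrected 1.08). DNAJC5 (cysteine string protein), a synaptic vesicle chaperone, rose with both drugs (0.39 ± 0.09, adjusted p = 9.69e-04) but not after the GC correction (0.07, adjusted p = 0.352). DNAJC13, an endosome protein, was at 0.26 ± 0.09 with SAHA (adjusted p = 0.0297) and -0.28 ± 0.09 with both (adjusted p = 0.0128), and neither call held after the correction (0.14 and 0.01). The SAHA call of DNAJC13 was also lost without DMSO replicate 1 (0.27), DMSO replicate 2 (0.21) or SAHA replicate 2 (0.22), and the other without combination replicate 3 (-0.21). DNAJC5B and DNAJC5G were not tested, with at most 7 counts in any library.

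Among nuclear and ribosomal members, DNAJC9, a histone chaperone of dividing cells, fell under each treatment. It was read at 108, 123 and 105 CPM in DMSO, 89.9, 67.9 and 81.2 with BEZ-235, 76.6, 82.7 and 79.9 with SAHA, and 51.9, 50.7 and 44 with both. No treated library reached a DMSO library, and the combined libraries were the lowest. The changes were -0.49 ± 0.10 (adjusted p = 6.22e-04), -0.49 ± 0.10 (adjusted p = 7.74e-04) and -1.20 ± 0.10 (adjusted p = 3.37e-08; GC-corrected -1.11). DNAJC8, a splicing-associated protein, fell with BEZ-235 (-0.68 ± 0.10, adjusted p = 1.87e-05) and with both (-0.57 ± 0.09, adjusted p = 6.01e-05; GC-corrected -0.41). DNAJC17, a nuclear DNAJ protein, rose with BEZ-235 (0.46 ± 0.12, adjusted p = 0.00438). DNAJC24, which takes part in making diphthamide, was at 0.39 ± 0.13 with SAHA (adjusted p = 0.0194), a call lost without DMSO replicate 1 (0.36), DMSO replicate 2 (0.35) or SAHA replicate 2 (0.31).

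Of the other HSP70-type genes, HSPA4L, a relative of HSPA4, fell with BEZ-235 and with both drugs. The readings were 79.3, 72.8 and 90.8 CPM in DMSO, 42.5, 49.5 and 51.5 with BEZ-235, 73.6, 81.4 and 80.9 with SAHA, and 32.7, 33.4 and 29 with both. The 6 libraries with BEZ-235 were the 6 lowest. The changes were -0.76 ± 0.10 with BEZ-235 (adjusted p = 8.02e-06), -0.04 ± 0.10 with SAHA (adjusted p = 0.761) and -1.35 ± 0.10 with both (adjusted p = 6.47e-09). GC-corrected, the fall with both drugs was -0.88, beside -0.82 with BEZ-235 alone. HSPA12B, named after its values were seen, was at -0.87 ± 0.33 with both drugs (adjusted p = 0.0264; GC-corrected -1.33). Its call was lost without DMSO replicate 2 (-0.66), combination replicate 1 (-0.81) or combination replicate 2 (-0.66). HSPA12A, named after its values were seen, is a distant HSP70 relative with high levels in brain. It rose from 2.26 to 2.58 CPM in DMSO to 5.32 to 7.35 with SAHA (1.42 ± 0.19, adjusted p = 1.48e-05) and 6.78 to 10.6 with both (1.88 ± 0.19, adjusted p = 2.38e-07; GC-corrected 1.83). HSPA2, not tested, had 7 counts in DMSO, 5 with BEZ-235, 47 with SAHA and 14 with both over 3 libraries each, and the SAHA sum includes 30 from the deepest library.

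Of the 4 genes grouped as neuronal DNAJ, DNAJB5 gave a pattern of opposed drugs. The group name is only a label, and restriction to neurons was not measured. DNAJB5 was read at 31.3, 28.7 and 30.3 CPM in DMSO, 15.3, 13.1 and 14.7 with BEZ-235, 42.3, 47.1 and 47.6 with SAHA, and 33.3, 28.8 and 31.5 with both. BEZ-235 libraries were the lowest, SAHA libraries the highest, and combined libraries overlapped with DMSO. It fell with BEZ-235 (-1.07 ± 0.09, adjusted p = 1.18e-07) and rose with SAHA (0.60 ± 0.09, adjusted p = 4.38e-05), and with both drugs it was at 0.05 ± 0.09 (adjusted p = 0.623; GC-corrected -0.20). DNAJB2, a neuronal DNAJ protein that delivers clients to the proteasome, rose with both drugs (0.98 ± 0.10, adjusted p = 3.38e-07; GC-corrected 0.64), from 22.4 to 27.1 CPM in DMSO to 43.9 to 54.8. Its BEZ-235 value of 0.33 ± 0.10 (adjusted p = 0.0139) was lost as a call without DMSO replicate 3 (0.24) or BEZ-235 replicate 1 (0.25). DNAJC12, a partner of the aromatic amino acid hydroxylases, was at 0.28 ± 0.11 with SAHA (adjusted p = 0.048), a call lost in 6 of the 12 fits without 1 library. Those fits lacked replicates 1 or 3 of DMSO, or replicates 2 or 3 of BEZ-235 or SAHA (0.20 to 0.29). DNAJB6, a suppressor of polyglutamine aggregation, was called in none of the 3 comparisons before the GC correction, and was lower with both drugs after it (-0.40).

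Among the remaining members, DNAJC4 rose with BEZ-235 (0.72 ± 0.13, adjusted p = 1.86e-04) and with both (1.26 ± 0.13, adjusted p = 2.23e-07; GC-corrected 0.93), from 18.9 to 23.6 CPM in DMSO to 31.8 to 39.2 and 44 to 61.5. HSPBP1, which releases nucleotide from HSP70, fell with SAHA (-1.01 ± 0.17, adjusted p = 1.51e-04), from 10.9 to 12 CPM in DMSO to 5.35 to 6.18. Its BEZ-235 value of -0.52 ± 0.17 (adjusted p = 0.0174) was no longer called without DMSO replicate 2 (-0.49) or BEZ-235 replicate 3 (-0.41), and its value with both of -0.44 ± 0.17 (adjusted p = 0.0315; GC-corrected -0.93) without DMSO replicate 2 (-0.43) or combination replicate 1 (-0.27). HSPBAP1 fell with SAHA (-0.55 ± 0.12, adjusted p = 0.0012), and DNAJC27, a small GTPase with a DNAJ domain, rose with BEZ-235 (0.45 ± 0.12, adjusted p = 0.00394). Named after their values were seen, the rare transcripts DNAJC22 and DNAJC28 gave 2 of the widest SAHA rises. DNAJC22 went from 0.104 to 0.706 CPM in DMSO to 5.08 to 6.17 with SAHA (3.71 ± 0.35, adjusted p = 2.24e-07) and 2.29 to 2.91 with both (2.63 ± 0.36, adjusted p = 4.36e-06; GC-corrected 2.50). DNAJC28 went from 0.366 to 0.978 CPM to 2.59 to 3.6 (2.11 ± 0.35, adjusted p = 1.16e-04) and 2.05 to 3.35 (2.01 ± 0.36, adjusted p = 9.14e-05; GC-corrected 2.48). DNAJA4 rose with BEZ-235 (2.22 ± 0.58, adjusted p = 0.00226) at levels under 1 CPM in every library, and HSPB11 fell with BEZ-235 (-0.72 ± 0.15, adjusted p = 6.28e-04) and rose with SAHA (0.59 ± 0.13, adjusted p = 0.00197). DNAJB7 and DNAJB8 were not tested.

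**Figure D3:**
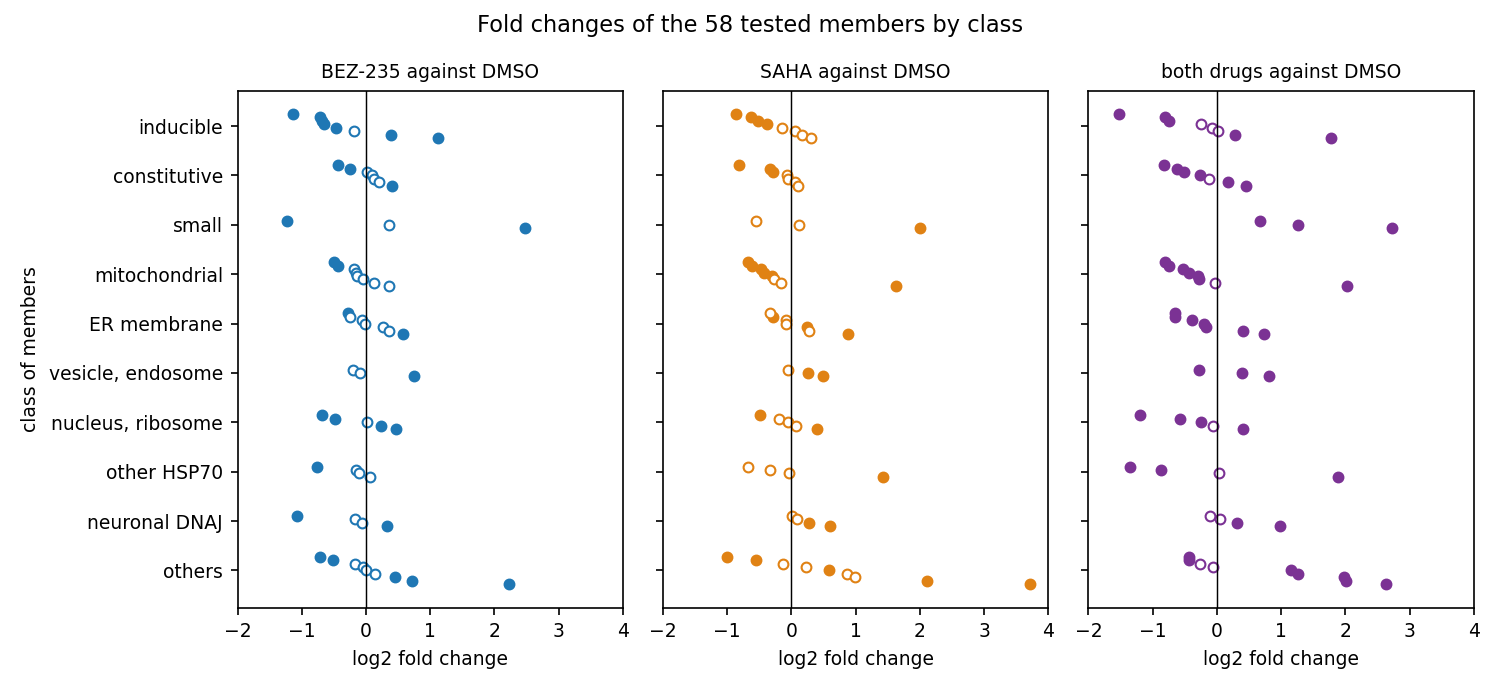
Log2 fold change against DMSO of the 58 tested members by class, with 1 point per gene, 1 panel per comparison and filled points for genes called at an adjusted p under 0.05. Mitochondrial genes with SAHA lie below 0 except DNAJC15 at 1.63, and the small and remaining genes spread the widest.

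The question of the combined treatment is whether both drugs together differ from each drug alone and from the sum of their changes. Against BEZ-235 alone, 18 members were higher and 21 lower with both drugs, 67.2% of those tested, where 58% of all genes were called (29.5% higher and 28.5% lower). Against SAHA alone, 16 were higher and 19 lower, 60.3% beside 58.8% of all genes (29.9% and 28.9%). GC-corrected, the split against BEZ-235 was 20 higher and 16 lower, beside 55.9% of all genes (28.9% and 27.1%). The GC-corrected split against SAHA was 20 and 15, beside 52.3% (28.4% and 23.9%), so that the share of higher calls went from 45.7 to 57.1%. Libraries did not overlap for 39 and 34 members, beside 62% and 63% of all genes. The interaction is the SAHA change with BEZ-235 minus the SAHA change without it. It was called above 0 for 12 members and below 0 for 10, 37.9% of those tested beside 38.4% of all genes (18.9% above and 19.6% below). After the GC correction it was called above 0 for 10 and below 0 for 2, 20.7% beside 19% of all genes (10.4% above and 8.57% below), and 5 of the 22 genes first called were called again in the same direction.

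Those 5 were HSPA1A, HSPA1B, HSPB1, DNAJC5 and DNAJA3. HSPA1A and HSPA1B may not be independent readings, as their transcripts are alike and the division of shared reads was not tested. Summed as 1 gene, they gave an interaction of 1.35 ± 0.19 without the GC correction (adjusted p = 1.45e-04). HSPA1B stood 1.32 ± 0.19 above the sum of the single changes (adjusted p = 2.31e-04; GC-corrected 0.82 ± 0.13, adjusted p = 6.07e-04), and HSPA1A 1.78 ± 0.34 above it (adjusted p = 0.00103; GC-corrected 1.19 ± 0.33, adjusted p = 0.0168). HSPB1 stood 1.79 ± 0.26 above it (adjusted p = 3.77e-04; GC-corrected 0.86 ± 0.13, adjusted p = 4.72e-04). All 3 were lower with BEZ-235 alone than with both drugs. The difference between both drugs and BEZ-235 was 1.90 ± 0.18 for HSPB1 (adjusted p = 3.14e-06; GC-corrected 1.24), 1.15 ± 0.25 for HSPA1A (adjusted p = 8.75e-04; GC-corrected 0.68) and 0.45 ± 0.14 for HSPA1B (adjusted p = 0.0104), the last at 0.04 and not called after the correction (adjusted p = 0.762). That of HSPA1B was also lost without BEZ-235 replicate 3 (0.36) or combination replicate 3 (0.30). Against SAHA alone the differences for HSPB1, HSPA1A and HSPA1B were 0.56 ± 0.18, 0.64 ± 0.23 and 0.61 ± 0.14, all called, and none was called after the correction (-0.18, 0.19 and 0.22). Of these, HSPB1 also lost its call without SAHA replicate 1 (0.49), SAHA replicate 2 (0.53) or combination replicate 3 (0.33). HSPA1A lost it without SAHA replicates 1, 2 or 3 (0.60, 0.68 and 0.61) or combination replicates 2 or 3 (0.57 and 0.53). DNAJC5 (0.66 ± 0.12, adjusted p = 9.27e-04) and DNAJA3 (0.38 ± 0.10, adjusted p = 0.00784) kept smaller GC-corrected values of 0.27 and 0.29, and DNAJA3 missed the threshold with no filter on low counts (0.34, adjusted p = 0.0666). No constitutive gene was called in the interaction by edgeR with all libraries and the usual filter, and DNAJA2 was after the GC correction (0.41, adjusted p = 0.00122). HSPA14 was called with no filter (-0.40), with the stricter filter (-0.35), and when DMSO replicate 2 (-0.41), BEZ-235 replicate 1 (-0.42) or combination replicate 1 (-0.47) was left out. HSPA4 (-0.28) and DNAJC7 (-0.33) were called without combination replicate 1. HSPH1, DNAJA1 and HSP90AA1, which fell further or as far with both drugs, had interactions of -0.35 ± 0.20 (adjusted p = 0.19), 0.12 ± 0.12 (adjusted p = 0.474) and 0.01 ± 0.12 (adjusted p = 0.945). The value of HSPH1 was -0.62 and called without combination replicate 1 (adjusted p = 9.04e-04), and 0.13 after the GC correction. DNAJA1 was at 0.50 and called after it (adjusted p = 0.00193).

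**Figure D4:**
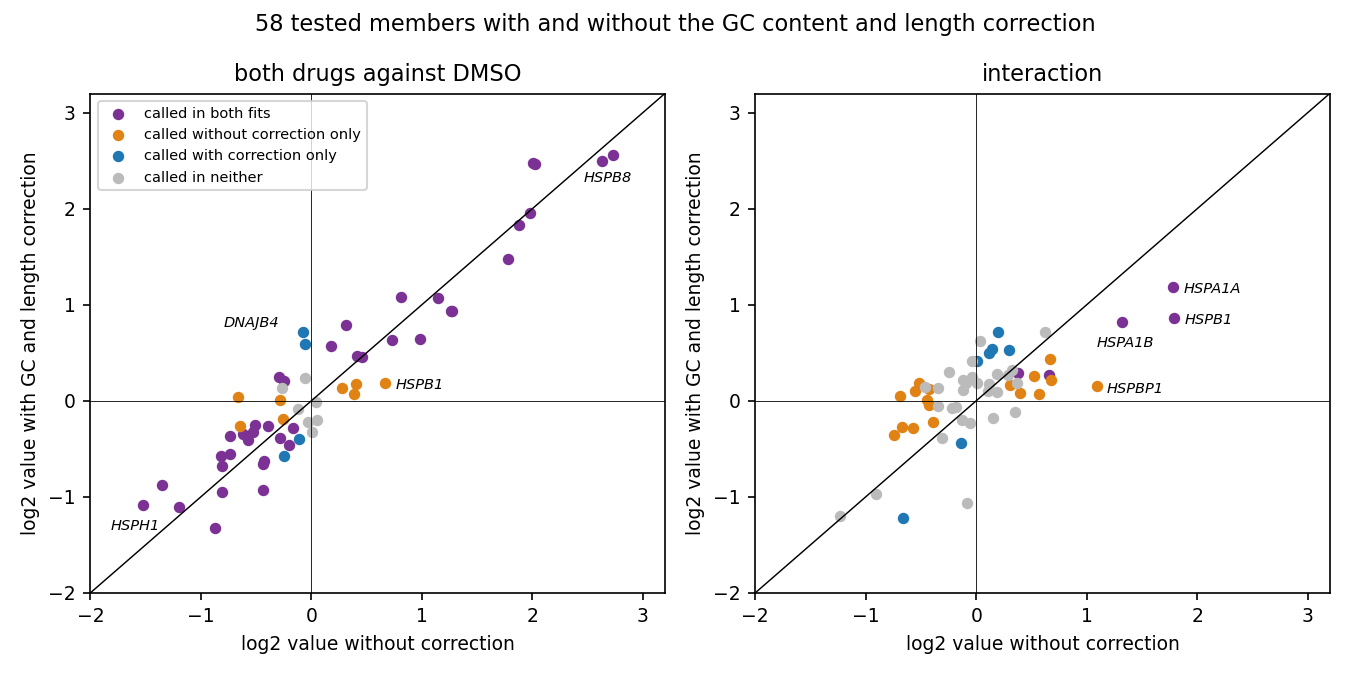
Log2 values of the 58 tested members without (x axis) and with (y axis) the GC content and length correction, for both drugs against DMSO (left) and for the interaction (right); the line marks equal values and colours mark which fit called the gene. With both drugs HSPB1 moves from 0.67 to 0.19 and DNAJB4 from -0.08 to 0.72, while HSPA1A, HSPA1B and HSPB1 stay the highest in the interaction.

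The correction also named the members whose reading with both drugs hangs on it. Of 47 members called with both drugs against DMSO, 37 were called in the same direction after it, 8 were not called, and 2 were called in the opposite direction. These 2 were DNAJC19 (-0.29 and 0.25), a mitochondrial import protein, and DNAJC21 (-0.25 and 0.21), a protein of ribosome assembly, both chosen for this reversal. The DNAJC19 call was lost without DMSO replicate 2 (-0.28) or combination replicate 2 (-0.27), and that of DNAJC21 without combination replicate 3 (-0.20). Of the 29 members called with BEZ-235, all 29 were called in the same direction after the correction, and of the 29 called with SAHA, 26 were. Of 39 called with both drugs against BEZ-235, 25 were called again in the same direction, 13 were lost and 1 was opposite. Of 35 called with both drugs against SAHA, 20 were called again, 15 were lost and 15 others were gained. Calls kept and lost over all genes are not given here, so these losses are not read as particular to the chaperones. Leaving out any 1 library kept 24 of the 29 BEZ-235 calls, 23 of the 29 SAHA calls and 35 of the 47 calls with both drugs.

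Partners of these chaperones were read from lists by role. Of 5 tested genes of the HSF group, 2 were higher and 1 lower with BEZ-235, none higher and 2 lower with SAHA, and 2 higher and 1 lower with both. These are 60%, 40% and 60% of the genes tested, beside 50.9%, 43.1% and 64.4% of all genes. HSF1, the heat shock factor itself, rose with both drugs (0.98 ± 0.15, adjusted p = 6.23e-05; GC-corrected 0.53), from 35.3 to 50.7 CPM in DMSO to 69.4 to 103. With BEZ-235 alone HSF1 was at 0.35 ± 0.15 (adjusted p = 0.0746), and 0.57 and called after the GC correction (adjusted p = 2.58e-06). It was also called without DMSO replicate 2 (0.47), BEZ-235 replicate 3 (0.43) or combination replicate 3 (0.34), and with no filter (0.31). The difference between both drugs and BEZ-235 was 0.64 (adjusted p = 0.00253) and, GC-corrected, -0.05 (adjusted p = 0.587). HSBP1, which binds the HSF1 trimer, fell with BEZ-235 (-0.34 ± 0.10, adjusted p = 0.00818) and with both (-0.57 ± 0.10, adjusted p = 8.02e-05; GC-corrected -0.50). HSF4, known from the lens, fell with SAHA (-0.75 ± 0.19, adjusted p = 0.007), and HSF2BP, a meiotic binding partner of HSF2, was at 0.74 ± 0.28 with BEZ-235 (adjusted p = 0.0335), a call lost without DMSO replicate 1 (0.59), DMSO replicate 2 (0.67), BEZ-235 replicate 1 (0.73) or BEZ-235 replicate 3 (0.62). HSF5 was not tested.

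Of the 5 BAG genes, 1 was higher and 2 lower with BEZ-235, 1 higher with SAHA, and 2 higher and 3 lower with both (2 and 1 GC-corrected). These are 60%, 20% and 100% (60% GC-corrected) of them, beside 50.9%, 43.1% and 64.4% (65.5%) of all genes. BAG3, the partner of HSPB8, was read at 53.9, 59 and 49.3 CPM in DMSO, 38.9, 41 and 39.3 with BEZ-235, 80.8, 76.1 and 82.6 with SAHA, and 76, 75 and 94.4 with both. BEZ-235 libraries lay below and all SAHA-treated libraries above DMSO. It fell with BEZ-235 (-0.44 ± 0.10, adjusted p = 0.00106) and rose with SAHA (0.56 ± 0.09, adjusted p = 1.47e-04) and with both (0.60 ± 0.09, adjusted p = 3.36e-05; GC-corrected 0.34). BAG1, an HSP70 exchange factor, rose with BEZ-235 (0.76 ± 0.10, adjusted p = 9.91e-06) and with both (0.73 ± 0.10, adjusted p = 7.21e-06; GC-corrected 0.71). BAG4 was at -0.57 ± 0.10 with both (adjusted p = 1.04e-04) and, GC-corrected, -0.10 (adjusted p = 0.309).

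Of 15 cochaperones of HSP90 and HSP70, 2 were higher and 6 lower with BEZ-235, none higher and 5 lower with SAHA, and 4 higher and 8 lower with both (2 and 5 GC-corrected). These are 53.3%, 33.3% and 80% (46.7% GC-corrected) of them, beside 50.9%, 43.1% and 64.4% (65.5%) of all genes. FKBP5, a steroid receptor cochaperone, fell under every treatment, by -0.82 ± 0.08, -0.41 ± 0.08 and -1.37 ± 0.08 (adjusted p = 4.74e-07, 5.85e-04 and 5.99e-10; the last GC-corrected -1.07). ST13 (HIP), which stabilises HSP70 bound to its client, rose with BEZ-235 (0.61 ± 0.08, adjusted p = 1.60e-05) and with both (0.83 ± 0.08, adjusted p = 2.57e-07; GC-corrected 1.20). Of the 8 subunits of the cytosolic chaperonin TRiC, 1 was lower with each single drug and 6 with both (5 lower and 1 higher GC-corrected). The share of TRiC called was 12.5% with each single drug, below that of all genes, and 75% with both, before and after the GC correction. CCT5 was at -0.29 ± 0.09 with BEZ-235 (adjusted p = 0.0106) and TCP1 at -0.50 ± 0.10 with both (adjusted p = 4.15e-04; GC-corrected -0.29). CCT7 was at -0.22 ± 0.08 with SAHA (adjusted p = 0.0353), a call lost without DMSO replicate 1 (-0.25), DMSO replicate 2 (-0.16) or SAHA replicates 1, 2 or 3 (-0.18, -0.25 and -0.24).

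All 6 prefoldin subunits, which hand actin and tubulin to TRiC, were called with BEZ-235, 2 higher and 4 lower. The share called was 100% with BEZ-235, 16.7% with SAHA and 50% with both (100% GC-corrected). All genes were called at 50.9%, 43.1% and 64.4% (65.5%). PFDN5 rose (0.67 ± 0.10, adjusted p = 4.88e-05) and PFDN2 fell (-0.53 ± 0.10, adjusted p = 4.41e-04). With SAHA only VBP1 was called (-0.36 ± 0.13, adjusted p = 0.0359), and not without DMSO replicate 1 (-0.37), DMSO replicate 2 (-0.30), BEZ-235 replicate 2 (-0.36), SAHA replicate 1 (-0.23) or its replicate 2 (-0.36). With both drugs PFDN5 was higher (0.63 ± 0.10, adjusted p = 5.71e-05; GC-corrected 0.66) and VBP1 lower (-1.55 ± 0.14, adjusted p = 9.74e-08; GC-corrected -0.99). CRYAB (alpha B crystallin), a small heat shock protein whose name keeps it out of the HSPB genes, rose with BEZ-235 (1.26 ± 0.24, adjusted p = 3.55e-04) and with both (1.30 ± 0.24, adjusted p = 1.65e-04; GC-corrected 1.09), from 0.8 to 0.845 CPM in DMSO to 1.76 to 2.14 and 1.82 to 2.34. Its SAHA value of 0.63 ± 0.24 (adjusted p = 0.045) was no longer called without any 1 DMSO or BEZ-235 library, SAHA replicate 1 (0.53) or SAHA replicate 3 (0.61), nor by DESeq2 (adjusted p = 0.15). TRAP1, the mitochondrial HSP90, fell with SAHA (-0.57 ± 0.08, adjusted p = 4.94e-05).

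Of the 6 chaperones of the ER lumen left out of the members, 4 were lower and 1 higher with BEZ-235, 1 lower and 1 higher with SAHA, and 5 lower with both (4 lower and 1 higher GC-corrected), where 25.4%, 20.9% and 31.2% of all genes were lower. The median with both drugs was -0.75, and -0.24 after the GC correction. HSPA5 (BiP), the ER HSP70, fell by -0.86 ± 0.09 with BEZ-235 (adjusted p = 6.89e-07) and -1.46 ± 0.09 with both (adjusted p = 6.39e-10; GC-corrected -1.39). Its SAHA value was -0.29 ± 0.09 (adjusted p = 0.0121), which missed the threshold when SAHA replicate 1 was left out (-0.23). DNAJB11, an HSPA5 partner, fell with BEZ-235 (-0.92 ± 0.09, adjusted p = 5.24e-07), and HSP90B1, the HSP90 of the ER, fell by -0.67 ± 0.10 with BEZ-235 (adjusted p = 3.31e-05) and by -1.21 ± 0.10 with both (adjusted p = 2.63e-08; GC-corrected -0.81). HSPA13 rose with SAHA (0.40 ± 0.10, adjusted p = 0.00388). With both drugs it was at -0.19 (adjusted p = 0.111), and 0.55 and called after the GC correction (adjusted p = 6.92e-07). DNAJB9 was at 0.48 ± 0.14 with BEZ-235 (adjusted p = 0.0111), a call lost without DMSO replicate 1 (0.37) or BEZ-235 replicate 2 (0.34).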

How the data were processed

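RNA was sequenced from 12 cultures of NB-1 cells in 4 groups of 3, from poly-A libraries that keep strand, per the labels' protocols. Per the submitters' processing notes, STAR and RSEM were used on hg38. Versions, annotation and strand setting are not given in these labels. As deposited by the authors, the table held expected counts, not scaled for depth or length, for 58051 genes, of which 80.07 to 84.75% per library were whole numbers. These were rounded to whole counts. Symbols, lengths and GC contents came from GENCODE 29, which held 57447 of the identifiers, and promoter sequences from RefSeq (GRCh38.p14).

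One model of 4 group means with 8 residual degrees of freedom was fitted in edgeR 4.0.16 under R 4.3.3 (TMM scaling, filterByExpr, robust quasi-likelihood test, Benjamini-Hochberg adjustment over 17774 genes), and the fit was tested on simulated data. With BEZ-235 against DMSO simulated over 17394 genes, it called 73% of 100 genes changed 1.5-fold, 100% of 100 changed 2-fold and 8 unchanged genes. The changed genes were drawn from well-counted genes only, all genes had the same spread, and no GC effect was simulated. These figures therefore do not hold for rare transcripts or the GC effect, nor for data with 50.9% of genes called. The spread between replicates (biological coefficient of variation 10.6%) limits precision besides depth. p-values measure the spread among cultures of 1 line. Members, classes, pathway lists, markers and rules were chosen with earlier results of these data known. Named genes are all measured inducible, constitutive and small genes, the 5 highest and 5 lowest called others per comparison against DMSO whose log2 CPM averaged 3 or more, the 5 members with the smallest interaction p among those called, and the strongest partner gene per list and direction. Alternatives were DESeq2 1.42.0, scaling by relative log expression, no filter on low counts or a stricter one (mean CPM of at least 1), unrounded counts, a replicate block, only the groups compared, the GC and length correction, HSPA1A and HSPA1B summed, and each library left out.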

Additional observations from a re-analysis of the deposited data

Results flagged for a closer look

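The SAHA change differed with and without BEZ-235 for 22 members, by the interaction test in edgeR (adjusted p under 0.05 over all genes). These are 37.9% of the members tested, near the 38.4% of all genes called, and GC-corrected the shares were 20.7% and 19%. Each value is the log2 difference between the SAHA changes with and without BEZ-235. Above 0 were HSPB1 (1.79), HSPA1A (1.78), HSPA1B (1.32), HSPBP1 (1.09), DNAJC4 (0.68), DNAJC30 (0.67), DNAJC5 (0.66), DNAJB2 (0.57), DNAJB5 (0.52), DNAJC11 (0.40), DNAJA3 (0.38) and DNAJB1 (0.31). Below 0 were DNAJC27 (-0.74), DNAJB14 (-0.69), DNAJC25 (-0.67), DNAJC16 (-0.57), HSPA4L (-0.55), DNAJB4 (-0.52), DNAJC13 (-0.45), DNAJC6 (-0.43), DNAJC21 (-0.43) and DNAJC18 (-0.39).

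Without any 1 library 17 of the 22 calls held, and 4 held under every alternative. DNAJB1 lost its call in 8 fits without 1 library: DMSO replicate 1 (0.26) or 2 (0.27), BEZ-235 replicate 1 or 2 (0.28 each), SAHA replicate 1 (0.26) or 2 (0.31), or combination replicate 1 (0.28) or 3 (0.30). DNAJC11 lost it without DMSO replicate 1 (0.37) or BEZ-235 replicate 3 (0.32), DNAJC30 without combination replicate 3 (0.53), DNAJB14 without DMSO replicate 1 (-0.63) or BEZ-235 replicate 2 (-0.61), and DNAJC21 without BEZ-235 replicate 3 (-0.36).

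After the GC correction HSPB1 (0.86), HSPA1A (1.19), HSPA1B (0.82), DNAJC5 (0.27) and DNAJA3 (0.29) were still called. The other 17 were not, and HSPBP1 went to 0.15 and DNAJC27 to -0.36. In the same step 5 members gained a call above 0, namely DNAJA1 (0.50), DNAJA2 (0.41), DNAJC8 (0.53), DNAJC12 (0.72) and HSPBAP1 (0.54), and 2 gained one below 0, HSPB7 (-1.22) and DNAJC17 (-0.44).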

How the results depend on the processing

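Counts of members called higher and lower kept within 1.5 times under every alternative run but 1: after the GC correction 2 members were called below 0 in the interaction, in place of 10, and the cause was not tested. With 1 library left out, higher and lower counts ranged over 11 to 13 and 15 to 20 (BEZ-235), 9 to 13 and 14 to 17 (SAHA), 17 to 21 and 21 to 27 (both drugs), 14 to 18 and 18 to 25 (both against BEZ-235), 11 to 16 and 15 to 20 (both against SAHA), and 10 to 14 and 9 to 14 (interaction).

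Of 165 gene values, 115 kept direction and call after the GC correction, 159 by DESeq2, 159 by relative log expression scaling, 149 with no filter and 165 with unrounded counts. Correlations across groups, of deviations from group means, were -0.164 to 0.128 for same-numbered libraries and -0.145 to 0.16 for the others. No pairing by replicate number was seen, but these values cannot show how the cultures were set up. A replicate block kept 156 of 165, with 8 weaker and 1 stronger.

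Sign turns are given for members only, without a share over all genes. Over the 58 members the sign turned after the GC correction for 1 with BEZ-235, 1 with SAHA, 11 with both drugs, 9 with both against BEZ-235, 14 with both against SAHA and 15 in the interaction. Among these were, with both drugs against DMSO, DNAJC19 (0.25), DNAJC21 (0.21), DNAJC13 (0.01), DNAJB4 (0.72), HSPA1A (-0.32), DNAJC27 (0.24), DNAJB5 (-0.20), DNAJC24 (0.59), HSPBAP1 (0.13) and DNAJB14 (0.04), against SAHA HSPB1 (-0.18) and HSPBP1 (-0.17), against BEZ-235 HSPBP1 (-0.61), and in the interaction HSPH1 (0.13), DNAJB14 (0.05), DNAJB4 (0.19), DNAJC13 (0.01), DNAJC21 (0.12) and HSPA4L (0.10). HSPA1A with both drugs also turned to -0.00 (relative log expression), -0.05 (no filter), -0.00 (only the groups compared), -0.01 (DESeq2), -0.23 (summed with HSPA1B) and, with 1 library left out, -0.14 to 0.28. With no filter HSPA8 (-0.01) and DNAJC24 (-0.01) turned with BEZ-235 and DNAJB5 (-0.00) with both drugs. DNAJC24 with BEZ-235 was -0.00 with only the groups compared. With 1 library left out, signs also turned within these ranges: HSPA8 (-0.03 to 0.07), DNAJC24 (-0.09 to 0.10) and DNAJC1 (-0.10 to 0.10) with BEZ-235, DNAJA2 (-0.01 to 0.09), DNAJB4 (-0.02 to 0.13), HSPB1 (-0.04 to 0.25), DNAJC17 (-0.02 to 0.15) and HSPA4L (-0.11 to 0.05) with SAHA, DNAJB5 (-0.01 to 0.08) with both, and HSPBP1 (-0.13 to 0.27) with both against BEZ-235.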
